A study of Drosophila melanogaster with 12 samples.

Results

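The JAK-STAT pathway carries cytokine signals to the nucleus, and the Turandot genes encode small secreted peptides that fly tissues release under stress. 10 genes of this system were followed in adult Drosophila melanogaster, namely the ligand genes upd2 and upd3, the receptor gene dome, the kinase gene hop, the transcription factor gene Stat92E, the inhibitor gene Socs36E, and the Turandot genes TotA, TotC, TotM and TotX. They were picked by name, and all 10 were found among the 15631 genes with a count in at least 1 library. The libraries came from whole w1118 flies, a laboratory stock that lacks a working white gene in every group, so that no group is a true wild type. Mated flies were parted by sex at 3 days of age and kept in separate vials on a medium with 10% sucrose and 10% yeast. Females and males were sampled at 10 days and at 30 days. Each of these 4 groups had 3 poly(A) RNA libraries from independent experiments, with 10 pooled flies in a library. No infection or other treatment is given for the sequenced flies.

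In flies the Unpaired cytokines bind the receptor Domeless, the Janus kinase Hopscotch is activated on its inner side, and the phosphorylated Stat92E protein enters the nucleus and switches on target genes. Socs36E is such a target and dampens the receptor complex in turn, which makes its transcript a common readout of the pathway. The Turandot genes are switched on mainly in the fat body after heat, wounding, infection and other stress, through Stat92E and also through the Mekk1 and Imd branches, while in the gonads the pathway maintains stem cells and shapes follicle cells.

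In the BDGP6.54 annotation TotA (3R, 20871036 to 20871700), TotC (3R, 20872988 to 20873580) and TotX (3R, 20904917 to 20905518) lay in 1 cluster with TotB and TotZ. TotM (2L, 5329857 to 5330464) lay far from TotE (2L, 19912938 to 19913516) and TotF (2L, 19911815 to 19912377) on the same arm. The ligand genes upd2 (X, 18240654 to 18243284) and upd3 (X, 18277233 to 18284596) were neighbours of the founding ligand gene upd1 (X, 18305354 to 18309291). The receptor gene dome (X, 19676061 to 19683518) lay beside et (X, 19672312 to 19675891), which encodes a shortened receptor that antagonises dome. hop was also X-linked (X, 11360930 to 11368098), whereas Stat92E (3R, 20535323 to 20552311) and Socs36E (2L, 18138675 to 18152417) were autosomal. No exon of the 10 genes overlapped an exon of another gene. TotA and TotC are close relatives, and how the counting treated reads that fit both is not given in the sources used here, so their separate values are uncertain to that extent.

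The libraries held 23097763 to 62924598 counts, and the smallest was replicate 2 of the 30-day males. The groups differed in tissue makeup as well as in sex. The summed level of 7 ovary germline markers was 1532 to 2309 CPM (counts scaled to a common library size) in female and 5.91 to 18.1 in male libraries. The 3 follicle cell markers summed to 1724 to 2625 CPM in 10-day-old and 21.9 to 259 in 30-day-old females. In males they summed to 0.223 to 17.0 at 10 days and 0 to 1.00 at 30 days. Their part in the age differences was not tested. The sum of 5 testis markers was 607 to 1194 in male and 25.6 to 48.7 in female libraries. Of these 5, only bam had counts in replicates 1 and 3 of the 10-day-old females. It had 0 counts in replicate 1 of the males at each age. A list of 30 photoreceptor, neuron and muscle genes summed to 13104 to 14370 CPM in males, 2432 to 2989 in 10-day-old females and 1178 to 2368 in 30-day-old females. Most genes differed between the sexes: 78.4% of 13334 tested genes at 10 days and 78.8% of 13013 at 30 days passed an adjusted p of 0.05, and the median gene was higher in males by 1.06 and 1.32 on the log2 scale. Every count of the 10 genes below has to be read against these shares.

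Levels are given as CPM after TMM normalisation, which scales each library to a common bulk of genes. Compared per kilobase of exon, Stat92E led in 10-day-old females with 54.4 ± 3.78 CPM per kb (SD, n = 3), followed by dome with 27.6 ± 7.21, hop with 20.6 ± 3.32 and TotA with 14.3 ± 5.69. Stat92E stood apart by more than the spread, while dome and hop, and hop and TotA, were about 1 SD apart. In 10-day-old males the order was Stat92E (30.3 ± 2.99 CPM per kb), Socs36E (17.9 ± 2.97), TotA (15.3 ± 5.44), dome (12.5 ± 1.74) and hop (6.22 ± 0.586). There Socs36E and TotA, and TotA and dome, did not differ beyond the spread, while dome and hop did. TotC reached 5.999 ± 6.24 CPM per kb in 10-day-old females and 1.93 ± 0.756 in 10-day-old males. TotM, TotX, upd2 and upd3 stayed at or below 2.08 CPM per kb on average in every group.

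**Figure D1:**
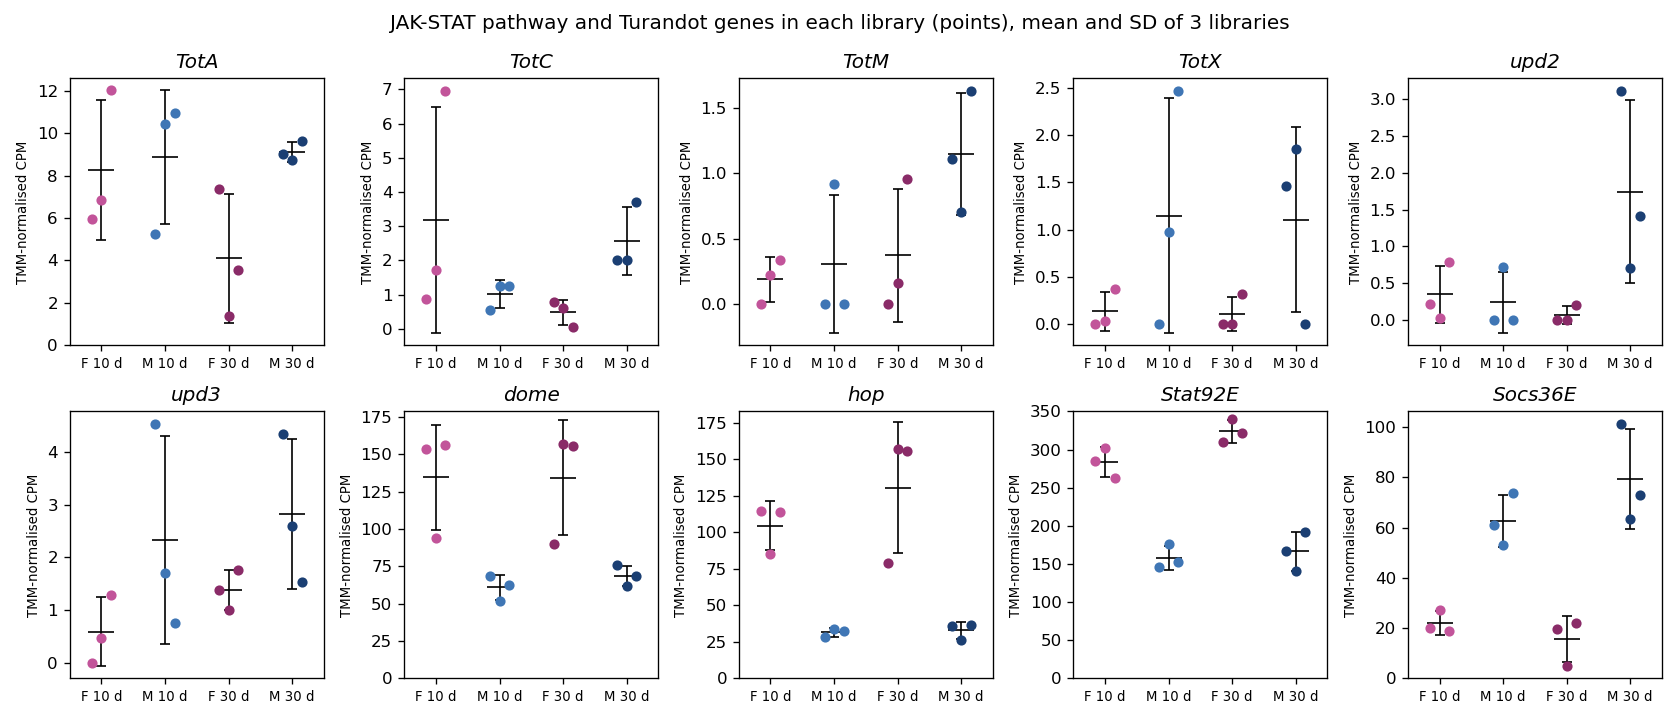
TMM-normalised CPM of each of the 10 genes (vertical axes, linear) by sex (F, M) and age (horizontal axis), with 1 point per library and the mean and SD of 3 libraries as bars. The female and male libraries lie apart for dome, hop, Stat92E and Socs36E at both ages, whereas the Turandot and ligand genes spread widely within groups.

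Between the sexes, the receptor, the kinase and the transcription factor were lower in males, while the inhibitor Socs36E was higher. At 10 days 1 of the 10 genes was higher (Socs36E) and 3 were lower (dome, hop, Stat92E) in males in the quasi-likelihood test of edgeR, with Benjamini-Hochberg adjustment over all genes. Among all tested genes 46.8% were higher and 31.6% lower in males. At 30 days 2 were higher (Socs36E, upd2) and the same 3 were lower, against 48.4% and 30.4% of all genes. The share called, 4 and 5 of 10, was below that of all genes at both ages, and the median log2 fold change of the 10 genes was -0.26 at 10 days and 1.36 at 30 days. In whole flies fewer cells of a type and less RNA per cell cannot be told apart.

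Of the ligands, upd2 was near the limit of detection. Its counts were 15, 2 and 42 in the 10-day-old females (replicates 1 to 3) and 0, 26 and 0 in the 10-day-old males. In the 30-day-old females they were 0, 0 and 9, and in the 30-day-old males 115, 14 and 51. The sexes overlapped at 10 days and did not overlap at 30 days, where every male library was above every female library. At 30 days the difference was 4.62 on the log2 scale (standard error, SE, 1.73, adjusted p = 0.0380) and at 10 days it was -0.55 (SE 2.02, adjusted p = 0.809). The call at 30 days did not hold when replicate 1 or 2 of the females or any of the 3 males was left out (adjusted p = 0.0621 to 0.121), nor with total counts (0.0501), without a filter (0.0639) or with all 12 libraries in 1 fit (0.1002), and with the soma-based library factors described below it was 1.73 (0.286). Without female replicate 3 it was 9.10 (0.00839), fitted against females at 0. A count of 0 in a library still allows up to 3 counts at that depth.

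The second ligand, upd3, a cytokine that hemocytes and the gut produce on damage and infection, had 0, 27 and 69 counts in the 10-day-old females and 170, 61 and 32 in the 10-day-old males. At 30 days it had 62, 61 and 77 counts in females and 161, 52 and 55 in males. The groups overlapped at both ages, and the single library highest in each male group was its replicate 1. The difference was 1.96 (SE 1.57, adjusted p = 0.282) at 10 days and 0.99 (SE 0.69, adjusted p = 0.212) at 30 days. The hemocyte markers summed to 233 to 268 CPM in females and 129 to 204 in males, with He at 0 in 9 and eater at 0 in 4 of the 12 libraries. Their part in the upd3 values was not tested.

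The receptor gene dome was at 154, 94.1 and 156 CPM in the 10-day-old females and at 68.5, 51.8 and 62.5 in the 10-day-old males. The 30-day-old females were at 90.2, 157 and 156 CPM and the males at 75.6, 61.8 and 68.3 in males. Every male library was below every female library at both ages, and 1 female library of each age was closer to the males than the others. dome was lower in males by a log2 fold change of -1.20 (SE 0.19, adjusted p = 0.00101) at 10 days and -1.02 (SE 0.25, adjusted p = 0.00601) at 30 days.

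hop, the only Janus kinase gene of the fly, showed the largest female excess of the 10 genes among those that passed the test. Its level was 114, 84.9 and 114 CPM in the 10-day-old females and 28.1, 33.8 and 32.4 in the 10-day-old males. In the older flies it was 78.8, 157 and 156 CPM in females and 36.0, 26.4 and 36.3 in males. The lowest female library was more than 2 times above the highest male library at each age. The log2 fold change was -1.80 (SE 0.14, adjusted p = 3.03e-05) at 10 days and -2.04 (SE 0.31, adjusted p = 0.000553) at 30 days. Among all tested genes 14.99% at 10 days and 13.0% at 30 days had a lower log2 fold change.

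Stat92E, the only STAT gene of the fly, had the highest level per kilobase of the 10 genes in every group. It was at 284, 302 and 263 CPM in the 10-day-old females and at 146, 176 and 153 in the 10-day-old males. The older flies had it at 310.3, 340.1 and 322 CPM in females and at 167, 141 and 191 in males. The sexes did not overlap at either age. Stat92E was lower in males with a log2 fold change of -0.93 (SE 0.14, adjusted p = 0.000732) at 10 days and -1.01 (SE 0.17, adjusted p = 0.00109) at 30 days. The ovary germline markers moved the same way as dome, hop and Stat92E, and their part in these differences was not tested.

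Socs36E went the other way. This inhibitor and target gene had 19.9, 27.3 and 18.7 CPM in the 10-day-old females and 61.0, 53.2 and 73.8 in the 10-day-old males. At 30 days it had 19.8, 4.96 and 22.1 CPM in females and 101, 63.4 and 72.998 in males. Every male library was above every female library, and the lowest value of all was that of female replicate 2 at 30 days. Socs36E was higher in males with a log2 fold change of 1.42 (SE 0.25, adjusted p = 0.00151) at 10 days and 2.31 (SE 0.52, adjusted p = 0.00389) at 30 days, and this direction reversed with the soma-based library factors described below. With TMM factors these differences lay 0.36 and 0.998 above that of the median gene on the log2 scale. By rank they were near the middle: 52.8% of all genes at 10 days and 58.4% at 30 days had a lower log2 fold change. Female replicate 2 at 30 days also had the lowest sum of photoreceptor, neuron and muscle markers (1178 CPM) and of fat body markers (246 CPM). Without it the log2 fold change at 30 days was 1.83 (adjusted p = 0.000928).

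Because the sexes differ in tissue makeup, the library factors decide where a fold change of 1 lies. Soma-based factors were set on those of the 30 photoreceptor, neuron and muscle genes with a count in every library of a fit. Act88F, fln and TpnC4 had a library at 0 at 10 days, and fln and TpnC4 at 30 days, so that they dropped out there. These factors take the share of these tissues as equal between the sexes. They moved the median of all genes by -2.52 at 10 days and -3.35 at 30 days on the log2 scale. With them dome, hop and Stat92E had log2 fold changes of -3.44 to -4.37 at 10 days and of -4.41 to -5.48 at 30 days, so that they stayed lower in males. Socs36E was then lower in males at 10 days (-1.05, adjusted p = 0.00296) and at -0.79 at 30 days (adjusted p = 0.128). TotA was lower as well (-2.55, adjusted p = 0.00184, and -2.03, adjusted p = 0.00572), as was TotC at 10 days (-4.36, adjusted p = 0.00373) and upd3 at 30 days (-2.26, adjusted p = 0.0104). In all 0 genes were higher and 6 lower at 10 days, and 0 higher and 5 lower at 30 days. With these factors 3111 of all 13334 genes were higher and 6816 lower at 10 days. At 30 days 2810 of 13013 were higher and 6889 lower. RLE, upper quartile and total-count factors moved the median of all genes by -0.26 to 0.32 and kept the direction of the 4 genes called at both ages.

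**Figure D2:**
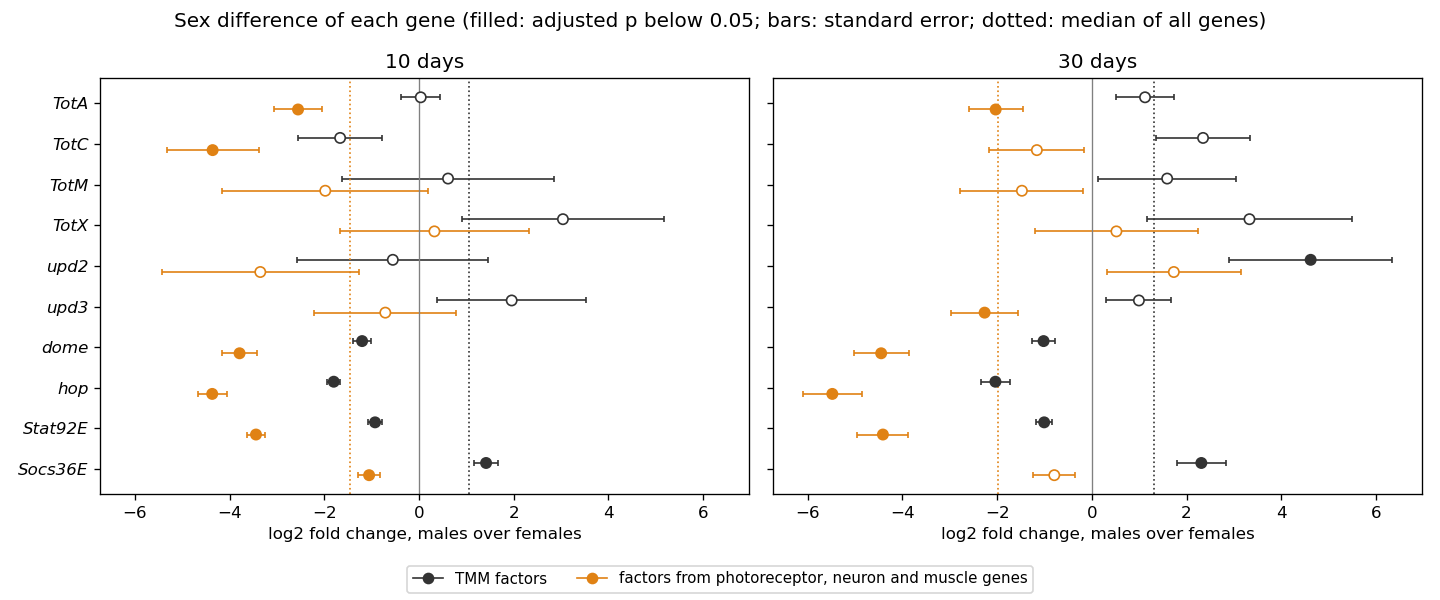
Log2 fold change of males over females (horizontal axis) for each of the 10 genes at 10 days (left) and 30 days (right), with the standard error as bars, filled points for an adjusted p below 0.05 and dotted lines for the median of all genes. dome, hop and Stat92E lie left of 0 and of the dotted line with both sets of library factors, while Socs36E lies right of 0 with TMM factors and left of it with soma-based factors.

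Ratios of 2 genes in the same library need no library factor. They were added after the values had been seen, as 24 comparisons of 3 against 3 libraries, in which the smallest exact permutation p (two-sided) is 0.1 and its adjusted value over the 24 was 0.24. For each 100 counts of Stat92E there were 7.72 ± 1.14 counts of Socs36E in the 10-day-old females and 40.2 ± 9.16 in the 10-day-old males (SD, n = 3). At 30 days these ratios were 4.90 ± 2.99 in females and 47.9 ± 11.5 in males. The ratio was thus 5.15-fold and 11.8-fold larger in males by its geometric mean, and no male library overlapped a female library (exact permutation p = 0.1 at each age). Without female replicate 2 the 30-day value was 7.11-fold. Such a ratio still carries the tissue makeup of a library. Stat92E was itself lower in males. With TMM factors Socs36E lay 0.36 and 0.998 above the median gene on the log2 scale, with 52.8% and 58.4% of all genes below it. Taken singly, 84.2% of all genes at 10 days and 84.9% at 30 days did not overlap between the sexes.

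The other core components kept closer to Stat92E. For each 100 counts of Stat92E there were 48.2 ± 15.01 counts of dome in the 10-day-old females and 39.2 ± 8.89 in the 10-day-old males, and 41.2 ± 10.6 and 41.6 ± 5.16 at 30 days, with overlap at both ages (exact permutation p = 0.5 and 1.0). hop had 37.2 ± 7.99 and 40.0 ± 12.7 counts per 100 of Stat92E in females of 10 and 30 days, and 19.9 ± 1.15 and 19.7 ± 1.54 in males. The sexes did not overlap in this ratio at either age (exact permutation p = 0.1 at each). The ratios of counts also carry the lengths of the genes and the tissue makeup of the flies, and are not ratios of molecules.

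**Figure D3:**
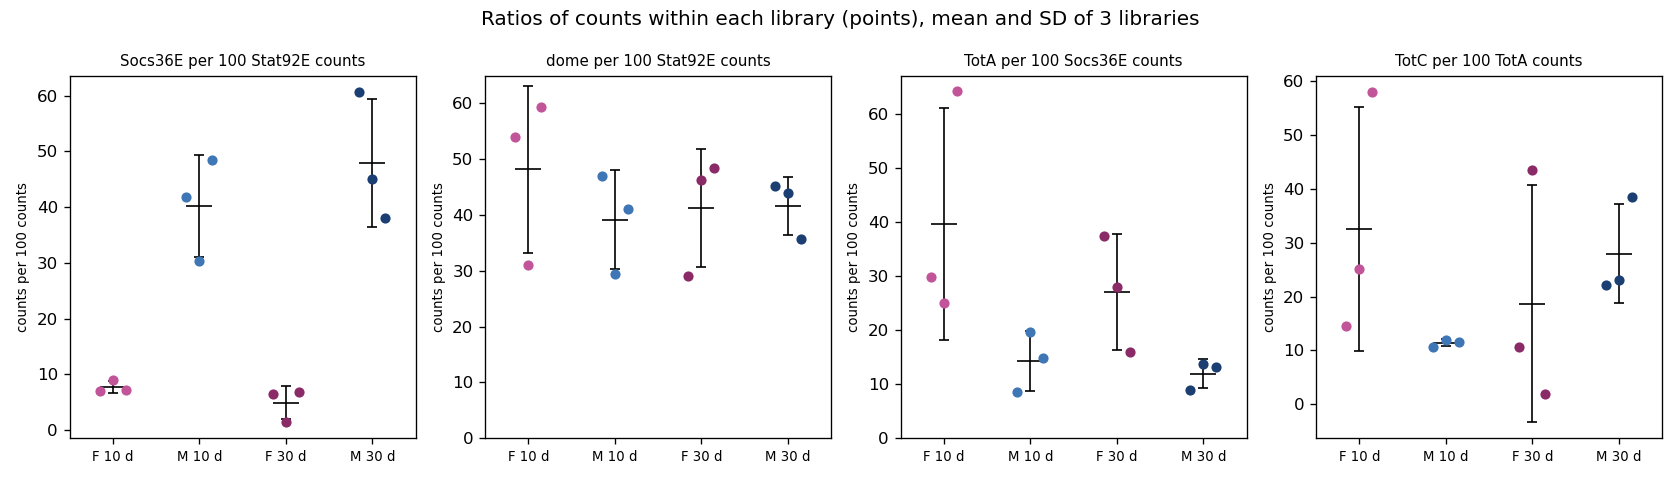
Ratios of the counts of 2 genes within each library (vertical axes, counts per 100 counts) by sex and age, with 1 point per library and the mean and SD of 3 libraries as bars. Socs36E per 100 Stat92E lies between 1.46 and 9.03 in all female and between 30.3 and 60.6 in all male libraries, while dome per 100 Stat92E overlaps between the sexes.

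The Turandot genes did not pass the test between the sexes at either age. TotA, the family member used most often as a marker of the humoral stress response, was at 5.93, 6.83 and 12.03 CPM in the 10-day-old females and at 5.24, 10.4 and 10.9 in the 10-day-old males. At 30 days it was at 7.39, 1.39 and 3.53 CPM in females and at 9.01, 8.72 and 9.65 in males. The sexes overlapped at 10 days, while at 30 days the 3 male libraries lay close together and above every female library. The log2 fold change was 0.04 (SE 0.41, adjusted p = 0.937) at 10 days and 1.12 (SE 0.62, adjusted p = 0.128) at 30 days. The value at 30 days was 0.67 without female replicate 2 (adjusted p = 0.223) and 1.78 without female replicate 1, where it passed the test (adjusted p = 0.0281). It also passed with limma-voom (1.499, adjusted p = 0.0495).

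TotC had 58, 99 and 371 counts in the 10-day-old females and 21, 45 and 53 in the 10-day-old males. In the 30-day-old females it had 35, 37 and 3 counts and in the 30-day-old males 74, 40 and 134. Replicate 3 of the females was thus the highest of its group at 10 days and the lowest at 30 days. These are separate libraries, and no pairing by replicate number was seen. At 30 days every male library was above every female library in CPM (2.00 to 3.72 against 0.0683 to 0.783), and at 10 days the sexes overlapped. The log2 fold change was -1.67 (SE 0.88, adjusted p = 0.121) at 10 days and 2.35 (SE 0.99, adjusted p = 0.0587) at 30 days. Without female replicate 3 the value at 10 days was -0.48 (adjusted p = 0.666), and with soma-based factors it was -4.36 (adjusted p = 0.00373). The value at 30 days passed the threshold with DESeq2 (2.55, adjusted p = 0.0247), limma-voom (2.85, adjusted p = 0.0267), RLE factors (2.54, adjusted p = 0.0467), upper quartile factors (2.69, adjusted p = 0.0395) and all 12 libraries in 1 fit (2.40, adjusted p = 0.0496), and was -1.16 with soma-based factors (adjusted p = 0.314).

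TotM and TotX were present in few libraries. TotM had 0, 13 and 18 counts in the 10-day-old females and 0, 33 and 0 in the 10-day-old males, and 0, 10 and 42 in the 30-day-old females. Only in the 30-day-old males did all 3 libraries hold TotM counts (41, 14 and 59). TotX had 0, 2 and 20 counts in the 10-day-old females, 0, 35 and 104 in the 10-day-old males, 0, 0 and 14 in the 30-day-old females and 54, 37 and 0 in the 30-day-old males. Every comparison of the sexes overlapped for both genes. The log2 fold changes of 0.61 and 1.59 for TotM and 3.04 and 3.33 for TotX had standard errors of 1.46 to 2.23 and adjusted p of 0.188 to 0.808, so that the differences were within the spread between libraries.

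By groups that did not overlap, 1 gene was higher and 3 were lower in males at 10 days, whereas 84.2% of all genes did not overlap, 50.6% higher and 33.6% lower. At 30 days 4 genes were higher (TotA, TotC, upd2, Socs36E) and 3 lower without overlap, whereas 84.9% of all genes did not overlap, 52.7% higher and 32.2% lower. Within a library, TotA had 39.7 ± 21.4 and 27.1 ± 10.7 counts per 100 of Socs36E in females of 10 and 30 days, and 14.3 ± 5.53 and 11.95 ± 2.66 in males. This ratio did not overlap between the sexes at either age (exact permutation p = 0.1 at each). The 5 fat body markers summed to 1030 to 1445 CPM in 10-day-old females, 246 to 651 in 30-day-old females and 1229 to 1666 in males, with Fbp1 at 0 in 10 and Lsp2 in 7 of the 12 libraries. Where both were at 0, the sums rested on apolpp, FASN1 and Yp1. Yp1 was also at 0 in replicate 1 of the 10-day-old males. The part of these markers in the Turandot values was not tested.

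With age, 0 of the 10 genes passed the test in males or in females. The edgeR fit of all 12 libraries called 0.452% of 14146 tested genes in males and 0.325% in females, so that few genes of any kind passed in this fit. At an unadjusted p below 0.05 there were 0 of the 10 genes in males and 1 in females (TotC), against 1711 and 1925 of all 14146 genes. DESeq2 also called 0 of the 10 in both sexes, against 572 of all genes in males and 616 in females. limma-voom called 0 of the 10 as well, against 1263 and 95 of all genes. The medians of the 10 genes were 0.22 in males and -0.18 in females on the log2 scale, 30 over 10 days. Soma-based factors moved the median of all genes in females by 0.87, and 0 of the 10 passed with them.

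TotC was the gene of the 10 with the lowest p in the ageing comparison of females. It was there at 0.862, 1.71 and 6.96 CPM at 10 days and 0.783, 0.606 and 0.0683 at 30 days, without overlap. In females 13.7% of all genes did not overlap between the ages, 5.11% higher and 8.62% lower at 30 days, and of the 10 genes TotC was lower and Stat92E higher (0.19, SE 0.14, adjusted p = 0.636) without overlap. The log2 fold change of TotC in females was -2.70 (SE 1.03, unadjusted p = 0.0234, adjusted p = 0.317), and -1.54 without female replicate 3 at 10 days. In males it was at 0.562, 1.25 and 1.26 CPM at 10 days and 2.00, 2.00 and 3.72 at 30 days, likewise without overlap. In males 25.4% of all genes did not overlap, 9.92% higher and 15.5% lower at 30 days, and of the 10 genes TotC alone did not. The log2 fold change in males was 1.33 (SE 0.99, adjusted p = 0.697).

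The change of the sex difference between 10 and 30 days was tested as an interaction. It was 4.03 for TotC (SE 1.43, unadjusted p = 0.0159, adjusted p = 0.272) and 5.17 for upd2 (SE 3.15, adjusted p = 0.521), and 0 of the 10 genes passed, against 0.0141% of all genes. At an unadjusted p below 0.05 there was 1 of the 10 (TotC), against 1837 of all 14146 genes. DESeq2 and limma-voom called 0 of the 10, against 528 and 83 of all genes. TotC per 100 counts of TotA was 11.4 ± 0.650 in the 10-day-old males and 27.9 ± 9.19 in the 30-day-old males without overlap (exact permutation p = 0.1), and 32.5 ± 22.6 and 18.7 ± 21.9 in females with overlap. The core genes differed little with age: the log2 fold changes of dome, hop and Stat92E lay between -0.0021 and 0.32 with standard errors of 0.14 to 0.25, and those of Socs36E were 0.34 in males and -0.49 in females (SE 0.43 in each).

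The rest of the pathway was compared by lists. Among 13 further JAK-STAT genes, 2 were higher and 9 lower in males at 10 days, and 2 and 8 at 30 days. Of all genes 46.8% were higher and 31.6% lower at 10 days, and 48.4% and 30.4% at 30 days. The medians were -1.59 and -1.26 against 1.06 and 1.32 for all genes. The higher ones were the ligand gene upd1 and the antagonist receptor gene et. upd1, which marks the hub of the testis and the polar cells of the ovary, had 16, 68 and 0 counts in the 10-day-old females and 555, 532 and 549 in the 10-day-old males, with a log2 fold change of 4.75 (adjusted p = 0.0127). At 30 days it had 0, 0 and 17 counts in females and 319, 207 and 255 in males (6.05, adjusted p = 0.00733, and 11.4 without female replicate 3, against females at 0, which is no bound). With soma-based factors it was 2.53 at 10 days (adjusted p = 0.0795) and 3.18 at 30 days (adjusted p = 0.0397). The direction of et (2.65 and 3.08) turned at 30 days with soma-based factors (-0.28). As a sum, the testis markers moved with upd1, and their part in it was not tested.

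The lower ones included further regulators of the pathway. Ptp61F, a phosphatase acting on hop and Stat92E, had log2 fold changes of -1.79 (SE 0.11) and -1.98 (SE 0.16), and Su(var)2-10, the PIAS protein that inhibits Stat92E, had -2.21 and -2.69. CycD, whose protein works with Cdk4 and binds Stat92E, had -3.61 and -3.76, and the SOCS relatives Socs16D (-1.59 and -1.08) and Socs44A (-1.70 and -1.62) were also lower in males. With soma-based factors 0 were higher and 11 lower at 10 days and 1 and 11 at 30 days. Of all genes 3111 of 13334 were then higher and 6816 lower at 10 days, and 2810 of 13013 and 6889 at 30 days.

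Of 8 tested genes reported as JAK-STAT targets, 5 were higher and 1 lower in males at 10 days, against 46.8% and 31.6% of all genes, and 7 were higher and 1 lower at 30 days, against 48.4% and 30.4%. Their medians were 1.37 and 2.50, against 1.06 and 1.32 for all genes. vir-1, a gene induced by viral infection, had log2 fold changes of 1.31 and 1.96, and Tep2, a thioester protein of the hemolymph, had 1.86 and 3.05. chinmo, which maintains male identity in the testis stem cells, had 3.66 and 5.08, while zfh1, a stem cell factor also used in muscle and hemocytes, was lower with -1.29 and -1.67. With soma-based factors the split was 1 higher and 5 lower at 10 days and 2 and 4 at 30 days, so that the direction of this list depended on the factors. All genes shifted as well, to 3111 of 13334 higher and 6816 lower at 10 days, and 2810 of 13013 and 6889 at 30 days. Tep4 and ImpL2, higher with TMM factors at both ages, were among those that turned (-1.29 and -1.24, and -1.34 and -1.73).

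Of 8 tested stress and immune regulators 4 were higher and 3 lower in males at both ages, close to the shares of all genes (46.8% and 31.6% at 10 days, 48.4% and 30.4% at 30 days). Among the 4 were imd, an adaptor of the antibacterial Imd pathway (1.63 and 1.65), and Rel, its NF-kB factor (0.68 and 1.28), whereas 0 of the list were higher and 7 and 8 were lower with soma-based factors. Those factors gave 3111 of 13334 genes higher and 6816 lower at 10 days, and 2810 of 13013 and 6889 at 30 days. Mekk1, a kinase upstream of p38 that acts on Turandot genes, was lower with -1.20 and -1.49. Of the further Turandot genes, TotB had 19 and 61 counts in 2 of the 10-day-old males and 29 and 21 in 2 of the 30-day-old males, against 13 counts in 1 of the 6 female libraries, and did not pass the test at 10 days (2.91, adjusted p = 0.271). TotE had 10 counts in 1 library. With age 0 genes of any of these lists passed the test in either sex.

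**Figure D4:**
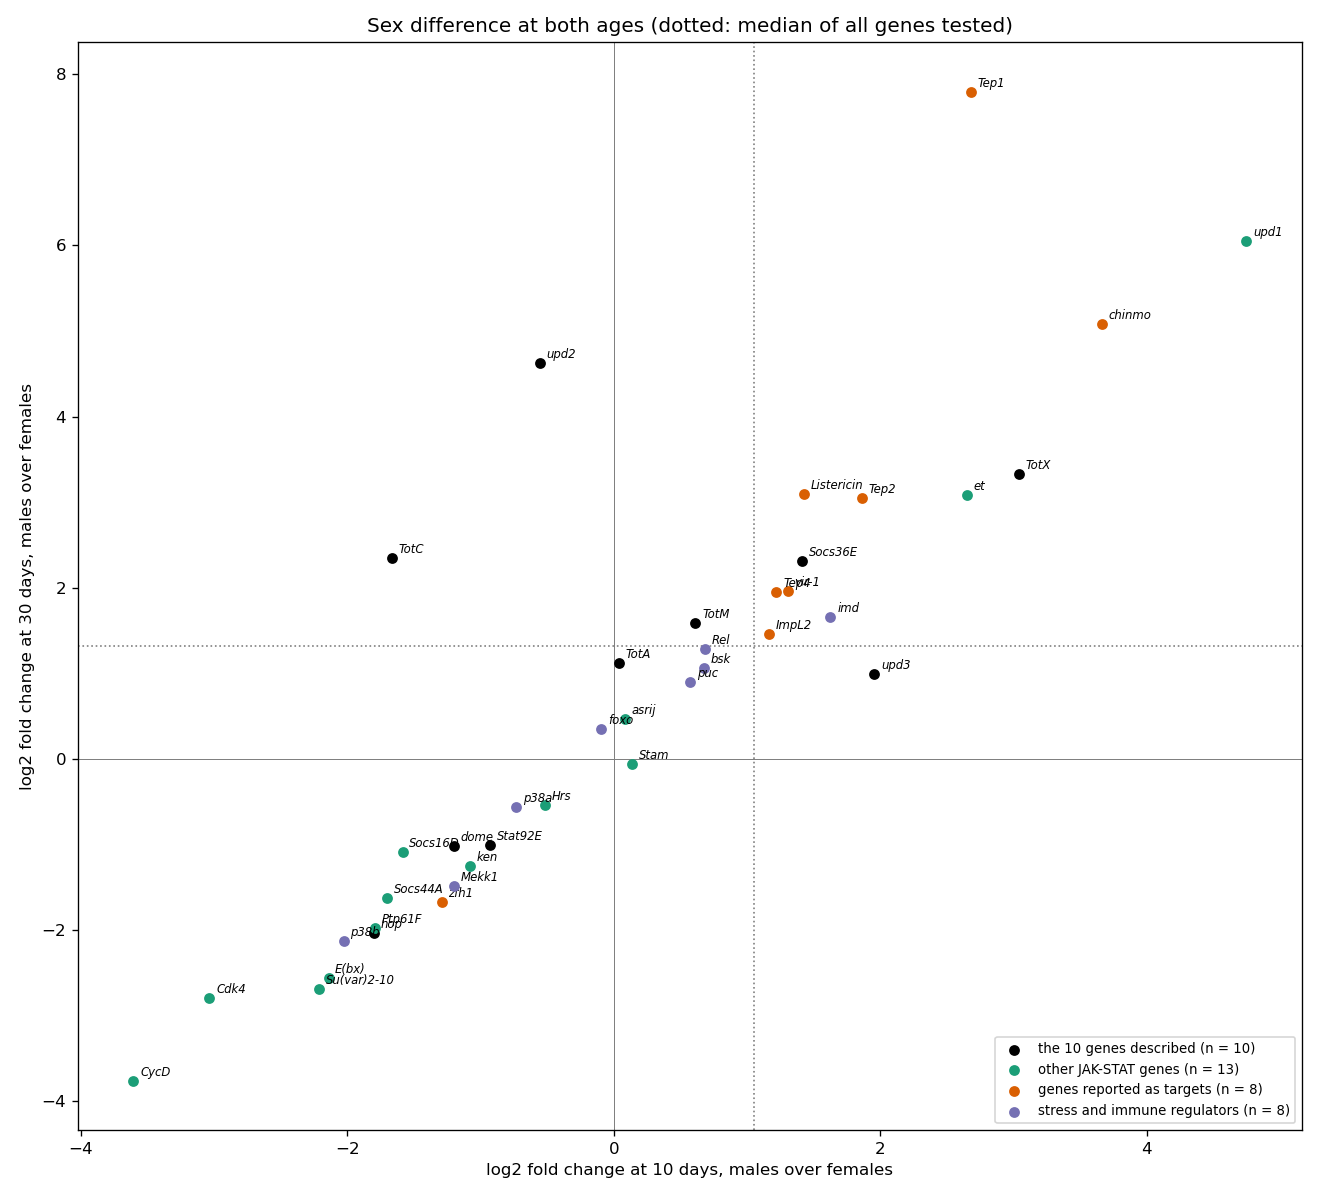
Log2 fold change of males over females at 10 days (horizontal axis) and 30 days (vertical axis), TMM factors, with 1 point per gene and dotted lines at the median of all genes. CycD lies lowest at -3.61 and -3.76 and upd1 farthest right at 4.75, while upd2 and TotC lie left of 0 at 10 days and above 0 at 30 days. Of the genes called higher here, Socs36E, vir-1, Tep2, Tep4, ImpL2, imd, Rel, bsk and puc at both ages and et and Listericin at 30 days turn with soma-based factors.

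The deviation of each library from its group mean was also compared across genes, as a description over 12 libraries that share their depth and makeup. For TotA the 3 genes most like it among 8766 were sug (Pearson r = 0.96), Mlc2 (0.95) and CG15599 (0.95), for Socs36E they were Gfat1 (0.98), ASPP (0.98) and flap (0.96). For upd3 they were CG30031 (0.94), Tsp42Er (0.93) and Cyp6a13 (0.92), and for TotM dind (0.93), Abcd3 (0.90) and CG16721 (0.88). Among the 10 genes themselves dome and hop (0.81), TotM and upd2 (0.73) and TotA and Socs36E (0.63) were the most alike. The named genes were the highest of 8766, and no test was run. TotM and upd2 had 0 counts in several libraries and upd3 in 1, so that their values rest partly on the floor.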

How the data were processed

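The authors deposited raw counts per NCBI gene, whole numbers without normalization, in 1 table for each age. 15618 of the 15631 gene numbers had a symbol. The aligner, the counting tool and the build are not given in the sources used here. A gene listed at 1 age only was taken as 0 at the other, since neither table lists genes without counts. The deposited FPKM, normalised values, fold changes and p-values, the last being the authors' own comparisons, were not used. In the short FPKM table of 30 days the numbers of 2 male libraries are exchanged against the count table, whose names are used here.

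Counts were fitted with edgeR 4.0.16 in R 4.3.3 (glmQLFit and glmQLFTest, TMM factors, filterByExpr, Benjamini-Hochberg adjustment over all tested genes, threshold 0.05). The sexes were compared in the 6 libraries of an age, and age and its interaction with sex in all 12 libraries as 4 groups. Standard errors are those implied by the F statistic. All 10 genes passed the filter, which favours genes high in 1 group. Libraries of 1 group are separate experiments according to the study. DESeq2 1.42.0, the authors' tool, limma-voom (limma 3.58.1), factors by RLE, by upper quartiles, by total counts or by genes of photoreceptors, neurons and muscle (soma-based), other filters, the replicate block, the study's rule of an absolute log2 fold change over 1 and each library left out in turn were alternatives. The soma-based factors used those of the 30 listed genes with a count in every library of the fit. Count ratios, also with each library left out, and the distance from the median gene were chosen after seeing the data. The genes named were the 10 genes, 4 lists of related genes, and the 3 genes most like TotA, TotM, Socs36E and upd3 by Pearson correlation of log2 CPM within groups, and others named in the closing section were chosen after their values were seen. Members and lists were chosen with earlier results of these data known. Counts carry no molecular identifiers, so that limits from a count of 0 (3 counts) cover counting error only. Python 3.11.15 with pandas 2.3.3 and scipy 1.17.1 gave the tables, and matplotlib 3.10.9 the plots.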

Additional observations from a re-analysis of the deposited data

Results flagged for a closer look

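The sex difference of TotC changed between the ages by 4.03 on the log2 scale (unadjusted p = 0.0159, adjusted p = 0.272 in the quasi-likelihood test of edgeR over all genes). It was flagged because its ages did not overlap in either sex, with higher values at 30 days in males and lower values in females. Of all genes, 9.92% were higher without overlap at 30 days in males and 8.62% lower in females. The share of genes with both is not given here, so how common the joint pattern is stays unknown. The size of the change is drawn from these same values and is no separate support. Over the alternatives and the libraries left out, the change was 2.95 to 4.60 and its adjusted p 0.0853 to 0.476, and the lowest value was reached without replicate 3 of the 10-day-old females, which had 371 counts of TotC.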

How the results depend on the processing

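The direction and side of the threshold of dome, hop and Stat92E between the sexes were the same under every alternative, apart from the rule of an absolute log2 fold change over 1, which left out Stat92E at 10 days and so called 3 of the 10 genes. The number of genes called at 30 days was 4 to 7 over the alternatives. TotM, TotX, upd2 and upd3 had 0 counts in 1 to 5 libraries each, while all 4 had counts in the smallest library.

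Soma-based factors turned the sex difference of TotA (-2.55 and -2.03 at 10 and 30 days), TotM (-1.98 and -1.48), upd3 (-0.71 and -2.26), Socs36E (-1.05 and -0.79), vir-1 (-1.18 and -1.22), Tep2 (-0.61 and -0.12), Listericin (-1.05 and -0.018), imd (-0.78 and -1.93), Rel (-1.81 and -2.06), Tep4 (-1.29 and -1.24), ImpL2 (-1.34 and -1.73), bsk (-1.84 and -2.31) and puc (-1.98 and -2.45) at both ages, and that of TotC (-1.16) and et (-0.28) at 30 days, beside Stam, asrij, Tep1 and foxo, which had not passed the test where they turned. They also turned the age difference in females of Socs36E (0.13) and dome (0.90) and the change of the sex difference of dome (-0.76), and the fit itself shifts all genes together. Total counts turned TotA between the sexes at 10 days (-0.13) and dome with age in females (0.097). Upper quartile factors turned TotX with age in males (0.029) and the change of the sex difference of Stat92E (0.032). limma-voom turned TotM at 10 days (-0.81). The 6 libraries of 1 sex alone turned TotX with age in males (0.031) and dome with age in females (0.016). The cause was not tested, and none of these differences had passed the test with TMM factors except those between the sexes of Socs36E, vir-1, Tep2, Tep4, ImpL2, imd, Rel, bsk and puc at both ages and of Listericin and et at 30 days.

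No pairing of the libraries by replicate number was seen. The correlation of deviations was -0.093 to 0.047 for same-numbered pairs and -0.080 to 0.084 for the others. Whether same-numbered libraries share an experiment cannot be told from this. With the replicate block 4 of the 10 genes were called at 10 days, 4 at 30 days (upd2 at 6.18, adjusted p = 0.0856) and 0 with age or for the interaction. The block turned TotM between the sexes at 10 days (-1.17), TotX with age in males (2.67) and dome with age in females (0.024).

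Leaving out 1 library moved the sex difference at 10 days from -0.16 to 0.37 for TotA, from -6.29 to 1.28 for TotM and from -7.18 to 0.79 for upd2. With age in males it ranged from -0.65 to 1.18 for TotX, from -0.23 to 0.22 for TotA, from -0.0063 to 0.20 for hop, from -0.18 to 1.20 for upd3 and from -0.034 to 0.18 for Stat92E. With age in females it ranged from -0.18 to 0.22 for dome, from -5.60 to 2.38 for TotX and from -1.18 to 1.60 for TotM. The change of the sex difference ranged from -0.23 to 0.097 for Stat92E, from -2.36 to 5.61 for TotX and from -0.44 to 0.011 for hop. Each of these directions turned with 1 library.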

Other observations

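TotX, TotB and Diedel, a gene reported as a JAK-STAT target, had 0 counts in the same 2 male libraries and counts in the other 4, a pattern picked out after the values were seen. In the 10-day-old males the counts of replicates 1 to 3 were 0, 35 and 104 for TotX, 0, 19 and 61 for TotB and 0, 87 and 275 for Diedel. In the 30-day-old males they were 54, 37 and 0 for TotX, 29, 21 and 0 for TotB and 54, 33 and 0 for Diedel. Those libraries, replicate 1 at 10 days and replicate 3 at 30 days, held 41341025 and 38990857 counts. In them 0.526% and 0.416% of the genes with at least 50 counts in both other libraries of the group had a count of 0, against 0.00875% to 0.411% in the remaining libraries. Diedel had 0 counts in all 6 female libraries. The cause of the pattern was not tested.

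Tep1, a thioester protein gene of the same list, also had counts in every male library (46, 1 and 63 at 10 days and 35, 10 and 23 at 30 days) and in 1 of the 6 female libraries (23 counts, replicate 3 at 10 days). At 30 days its log2 fold change was 7.79 (SE 1.48, adjusted p = 0.00373 in the quasi-likelihood test of edgeR), fitted against 3 female libraries at 0. chinmo had 208, 268 and 227 counts in the 10-day-old females and 70, 84 and 43 in the 30-day-old females, without overlap, with a log2 fold change of -1.61 over age (SE 0.32, adjusted p = 0.0673).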
